A study of Mus musculus with 6 samples.

Results

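Gdf15 and 8 other genes named for the transforming growth factor beta (TGF-beta) superfamily were followed in mouse embryonic fibroblasts given erastin. The 9 genes were selected by symbol, Gdf15, Gdf10, Gdf11, Tgfb1, Tgfb2, Tgfb3, Inhba, Bmp1 and Bmp4, and the set was chosen from the erastin against DMSO contrast because Gdf15 rose strongly in it. All 9 were found among the 43346 genes of the count table and all 9 were among the 14000 tested. The cells were primary fibroblasts of the C57BL/6 strain at passage 9, harvested after 24 h with 3 µM erastin (3 libraries) or with the solvent DMSO (3 libraries), with no genetic change named for either group, in medium that contained 2-mercaptoethanol in both. Erastin blocks the cystine/glutamate antiporter and is used to bring about ferroptosis, an iron-dependent form of cell death. Libraries were made from total RNA after removal of ribosomal RNA, and reads were counted per gene. Nothing in the labels says that the 3 libraries of a group came from separate embryos, so the spread between them may be partly technical.

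TGF-beta superfamily ligands are secreted as precursors, cut by furin-type proteases, and act as dimers on pairs of type I and type II serine/threonine kinase receptors. TGF-betas and activins signal mainly through SMAD2 and SMAD3, bone morphogenetic proteins (BMPs) mainly through SMAD1, SMAD5 and SMAD9, and all use SMAD4. In fibroblasts the TGF-betas are known for driving matrix synthesis and contractile genes. GDF15 is a distant member: it is a stress-induced hormone that acts on the receptor GFRAL with the co-receptor RET in the hindbrain, and its gene is a known target of the integrated stress response and of p53. Bmp1 does not belong to the family by structure. It encodes a metalloproteinase of the tolloid group, which trims procollagens and cuts the BMP antagonist chordin, so 8 of the 9 genes encode ligands.

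Total counts ran from 13333911 to 20509970 per library. Levels are given as counts-per-million values (CPM) scaled by TMM, the trimmed mean of M-values, and a level of 3 counts, taken as the smallest detectable, was worth 0.140 to 0.234 CPM. Such floors cover counting error only. Over genes with at least 20 reads, chi-square divided by its degrees of freedom was 10.96 to 19.2 for pairs within a group and 78.02 to 123 between groups, so no library repeated another. DMSO replicate 3 stood apart from the other DMSO libraries on principal component 2, which held 14.5% of the variance. Of the 14000 genes tested, 43.1% passed an adjusted p-value of 0.05 (edgeR quasi-likelihood test), 21.6% higher and 21.5% lower with erastin. The labelled cell type was checked on 10 fibroblast markers, all of them expressed, with a summed level of 28895 to 30051 CPM in DMSO and 17012 to 18969 CPM in erastin libraries. Of these 10 markers, 9 were lower with erastin (edgeR). In bulk RNA, fewer cells of a type and less RNA per cell cannot be told apart. For each of the 5 other cell types checked, the 5 markers summed to at most 101 CPM in any library. The endothelial sum was 2.66 to 5.36 CPM in DMSO and 8.50 to 10.99 CPM in erastin libraries, the skeletal muscle sum 35.5 to 45.6 CPM in DMSO and 65.2 to 69.1 CPM in erastin libraries and the neural sum 72.4 to 101 CPM in DMSO and 54.8 to 61.5 CPM in erastin libraries. The 3 of them that passed were Kdr, up from 3.20 ± 1.14 to 8.25 ± 0.717 CPM, Des, up from 40.6 ± 4.97 to 66.7 ± 1.95 CPM, and Tubb3, down from 67.05 ± 12.7 to 40.2 ± 4.48 CPM, while the endothelial markers Pecam1 and Cdh5 and the muscle factors Myod1 and Myog stayed under 1 CPM on average in both groups. Their part in the results below was not tested.

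In the same fit 7 of the 9 genes passed the threshold, 2 higher and 5 lower. Of all genes tested 43.1% passed, 21.6% higher and 21.5% lower. The same 7 members had no overlap between the groups, against 52.5% of all genes tested without overlap. Since this contrast proposed the set, the counts describe it and carry no test, and no p-value is given for a member. Gdf15 rose 20.4-fold and Inhba 1.62-fold, Gdf10, Tgfb2, Bmp4 and Tgfb3 were 11.2-, 3.70-, 3.62- and 3.13-fold lower, Bmp1 was 1.53-fold lower, and Gdf11 and Tgfb1 did not pass.

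**Figure D1:**
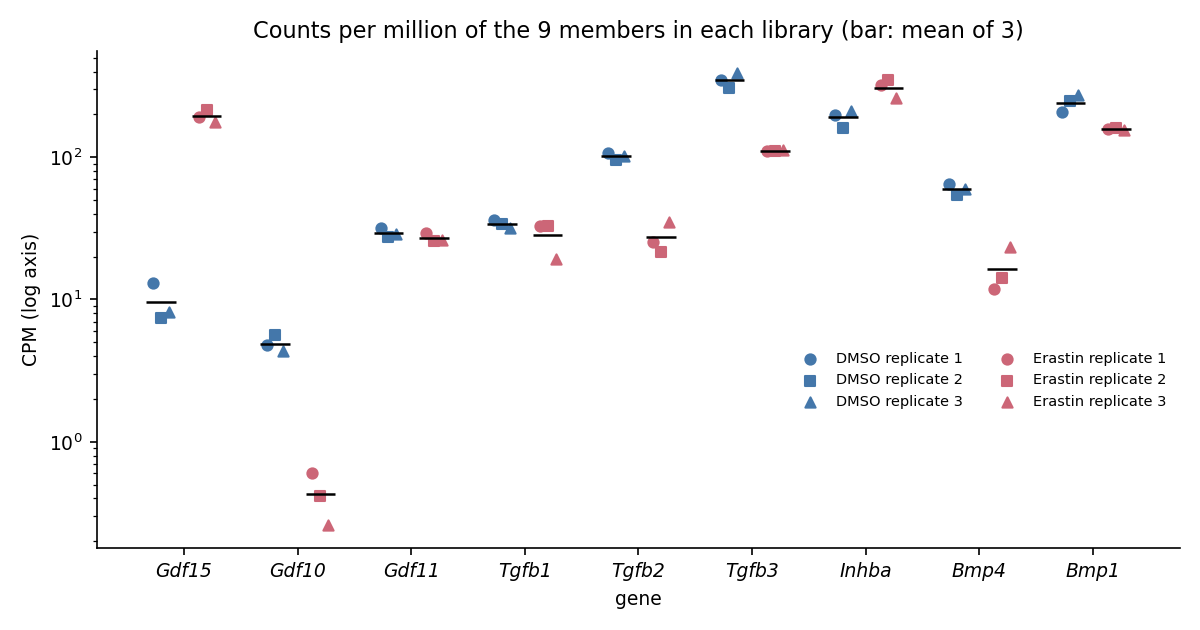
Level of each of the 9 genes in every library, in CPM on a log axis, with DMSO libraries in blue, erastin libraries in red, replicate 1 as circles, 2 as squares and 3 as triangles, and the mean of 3 as a bar. The erastin libraries of Gdf15 (176 CPM at the lowest) lie far above its DMSO libraries, those of Gdf10, Tgfb2, Tgfb3, Bmp4 and Bmp1 lie below, and the groups overlap for Gdf11 and Tgfb1.

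The bases just upstream of the transcription starts are shown for the pair of genes that rose, for Tgfb2, which fell, and for Tgfb1, which did not pass. RefSeq (GRCm38.p6) gave promoter windows for 7 of the 9 genes, without Tgfb3 and Bmp1. Each line holds the 250 bases before the start, 5′ to 3′ on the gene's strand. They lie at chr8:70632457-70632706, minus strand for Gdf15, at chr13:16011601-16011850, plus strand for Inhba, at chr1:186705990-186706239, minus strand for Tgfb2 and at chr7:25686752-25687001, plus strand for Tgfb1. Capitals mark matches to any of 7 motifs searched on both strands.
Gdf15: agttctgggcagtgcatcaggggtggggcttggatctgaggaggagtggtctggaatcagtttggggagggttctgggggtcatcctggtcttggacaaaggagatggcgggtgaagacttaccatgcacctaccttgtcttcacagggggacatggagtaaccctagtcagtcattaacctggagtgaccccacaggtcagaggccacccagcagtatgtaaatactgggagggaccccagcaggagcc
Inhba: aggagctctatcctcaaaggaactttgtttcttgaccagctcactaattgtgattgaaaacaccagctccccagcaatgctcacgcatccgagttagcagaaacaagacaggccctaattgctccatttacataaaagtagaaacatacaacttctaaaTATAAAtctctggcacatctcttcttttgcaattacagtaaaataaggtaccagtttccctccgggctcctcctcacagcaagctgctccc
Tgfb2: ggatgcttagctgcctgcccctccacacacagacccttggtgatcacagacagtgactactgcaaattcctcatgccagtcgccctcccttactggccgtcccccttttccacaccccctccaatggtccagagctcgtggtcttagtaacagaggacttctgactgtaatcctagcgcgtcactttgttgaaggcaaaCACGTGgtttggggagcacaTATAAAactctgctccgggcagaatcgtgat
Tgfb1: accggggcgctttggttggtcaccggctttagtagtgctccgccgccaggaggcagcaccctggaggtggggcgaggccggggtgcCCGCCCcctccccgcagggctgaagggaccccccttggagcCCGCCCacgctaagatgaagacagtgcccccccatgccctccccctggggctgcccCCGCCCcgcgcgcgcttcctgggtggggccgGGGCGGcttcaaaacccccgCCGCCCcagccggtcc

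The motifs were the cyclic AMP response element TGACGTCA, held by 1.55% of all 32851 promoter windows of this length, the C/EBP-ATF response element core TGATGNAA (3.45%), the AP-1 site TGANTCA (6.75%), the antioxidant response element TGACNNNGC (10.2%), the GC box GGGCGG (32.7%), the TATA box TATAAA (12.4%) and the E-box CACGTG (6.02%). The Gdf15 window shown held none of the 7; RefSeq lists another Gdf15 start, whose window overlaps exons of the gene and held 1 E-box. Inhba and Tgfb2 each held 1 TATA box, 91 and 31 bases before the start, and Tgfb2 also held 1 E-box. Gdf11, which did not pass, held 1 TATA box too, 185 bases before the start, and Bmp4 held 1 E-box at 188 bases. GC boxes were the most frequent match among the members' windows, with 5 in Tgfb1, 8 in Gdf11, 4 in Gdf10, 1 in Bmp4 and 0 in Gdf15, Inhba and Tgfb2. The genes that did not pass, Gdf11 and Tgfb1, had the most GC boxes of the 7 genes, and their windows had GC contents of 81.2% and 75.2%, against 56.4% for Gdf15 and 43.2% for Inhba. Gdf10 shared the high GC content, at 78.8%, and was among the genes that fell. A match is a run of letters, not a binding site.

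Gdf15 (ENSMUSG00000038508.7; chr8:70629393-70632456, minus strand of GRCm38, the build the submitters name as mm10) had 13.1, 7.43 and 8.17 CPM in DMSO replicates 1, 2 and 3 and 191, 214 and 176 CPM in erastin replicates 1, 2 and 3. Every erastin library stood above every DMSO library, the lowest of the former at 176 CPM and the highest of the latter, replicate 1, at 13.1 CPM. The means were 9.58 ± 3.11 CPM with DMSO and 194 ± 19.4 CPM with erastin (SD, n = 3 each), a log2 fold change of 4.35 (SE 0.16, 95% interval 4.01 to 4.69). By log2 fold change Gdf15 was number 19 from the top of the 14000 genes tested. The relative spread was larger in DMSO, with a coefficient of variation of 32.4%, than in erastin libraries, with 10.004%.

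Inhba (ENSMUSG00000041324.9; chr13:16011851-16031621, plus strand) encodes the beta A chain of activin A, and of inhibin A where it pairs with the alpha chain. It had 199, 159 and 212 CPM in DMSO replicates 1, 2 and 3 and 321, 346 and 259 CPM in erastin replicates 1, 2 and 3. The groups did not overlap, with erastin replicate 3 lowest in its group and DMSO replicate 3 highest in its own. Means were 190.1 ± 27.5 CPM with DMSO and 309 ± 44.8 CPM with erastin (SD, n = 3 each), a log2 fold change of 0.70 (SE 0.11, 95% interval 0.46 to 0.94). The inhibin alpha chain gene Inha and the beta B chain gene Inhbb are not members and were named after their values were seen. Inha was near the floor at 1.23 and 0.941 CPM on average. Inhbb had 125 ± 7.09 CPM with DMSO and 138 ± 17.6 CPM with erastin (edgeR adjusted p = 0.226).

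The 3 TGF-beta isoforms are latent cytokines held by their own propeptides. Tgfb3 (ENSMUSG00000021253.6; chr12:86056745-86079041, minus strand) had 349, 304 and 388 CPM in DMSO replicates 1, 2 and 3 and 109.9, 110.5 and 112 CPM in erastin replicates 1, 2 and 3. Its erastin libraries lay within a coefficient of variation of 0.771% and all under the DMSO libraries. The means were 347 ± 42.1 CPM with DMSO and 111 ± 0.853 CPM with erastin (SD, n = 3 each), a log2 fold change of -1.65 (SE 0.09, 95% interval -1.83 to -1.46). Tgfb2 (ENSMUSG00000039239.10; chr1:186622792-186705989, minus strand) had 107, 96.3 and 102 CPM in DMSO replicates 1, 2 and 3 and 25.4, 21.5 and 35.3 CPM in erastin replicates 1, 2 and 3. It too showed no overlap, and erastin replicate 3 was the highest of its group. Its means were 102 ± 5.14 CPM with DMSO and 27.4 ± 7.13 CPM with erastin, a log2 fold change of -1.89 (SE 0.14, 95% interval -2.19 to -1.59).

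Tgfb1 (ENSMUSG00000002603.11; chr7:25687002-25705077, plus strand) had 36.2, 33.8 and 31.9 CPM in DMSO replicates 1, 2 and 3 and 32.8, 32.9 and 19.3 CPM in erastin replicates 1, 2 and 3. Erastin replicates 1 and 2 fell among the DMSO libraries and replicate 3 lay below all others. The means of 33.95 ± 2.15 CPM with DMSO and 28.3 ± 7.84 CPM with erastin gave a log2 fold change of -0.26 (SE 0.17, 95% interval -0.63 to 0.10), which did not pass. Without erastin replicate 3 the log2 fold change was -0.04, so the lower mean rested on that library. Per kilobase of exon, the 3 isoforms together stood at 127 ± 12.9 RPKM with DMSO and 43.1 ± 0.279 RPKM with erastin (RPKM, CPM per kilobase of annotated exon; SD, n = 3 each). Tgfb3 made up 80.7% of that sum in DMSO and 75.96% in erastin libraries, and Tgfb1 5.35% and 13.05%.

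Bmp4 (ENSMUSG00000021835.10; chr14:46383520-46390669, minus strand), a ligand of the BMP branch with roles in mesoderm and skeletal development, had 64.7, 54.7 and 59.7 CPM in DMSO replicates 1, 2 and 3 and 11.8, 14.1 and 23.5 CPM in erastin replicates 1, 2 and 3. All erastin libraries were under all DMSO libraries, with erastin replicate 3 the highest of its group. The means were 59.7 ± 5.01 CPM with DMSO and 16.5 ± 6.24 CPM with erastin (SD, n = 3 each), a log2 fold change of -1.86 (SE 0.19, 95% interval -2.26 to -1.45). Gdf10 (ENSMUSG00000021943.6; chr14:33923587-33937983, plus strand), also known as BMP3B, had 63, 101 and 56 reads in DMSO and 13, 7 and 5 reads in erastin libraries, or 4.76, 5.60 and 4.36 CPM in DMSO replicates 1, 2 and 3 and 0.605, 0.419 and 0.259 CPM in erastin replicates 1, 2 and 3. The erastin libraries were lower throughout but rest on few reads. The log2 fold change of -3.49 (SE 0.47, 95% interval -4.49 to -2.48) placed it number 44 from the bottom of the 14000 genes.

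Gdf11 (ENSMUSG00000025352.6; chr10:128882295-128891718, minus strand), the close relative of myostatin, had 31.6, 27.4 and 28.96 CPM in DMSO replicates 1, 2 and 3 and 29.3, 25.6 and 25.98 CPM in erastin replicates 1, 2 and 3. The groups overlapped, and the log2 fold change of -0.12 (SE 0.12, 95% interval -0.38 to 0.14) did not pass. Bmp1 (ENSMUSG00000022098.9; chr14:70474558-70520234, minus strand) had 207, 247 and 271 CPM in DMSO replicates 1, 2 and 3 and 158, 160.5 and 156 CPM in erastin replicates 1, 2 and 3. Its erastin libraries lay close together and under all DMSO libraries, with means of 242 ± 32.8 CPM with DMSO and 158 ± 2.16 CPM with erastin (SD, n = 3 each) and a log2 fold change of -0.61 (SE 0.09, 95% interval -0.80 to -0.42). Genes annotated on the opposite strand overlap exons of Tgfb2 (Gm29491, 124 bases), Tgfb3 (Gm37804 and Gm48008, 163 and 257 bases) and Bmp4 (Gm15217, 89 bases). Whether counting used the strand is not given in the sources used here, so reads of those stretches cannot be told apart between the partners.

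**Figure D2:**
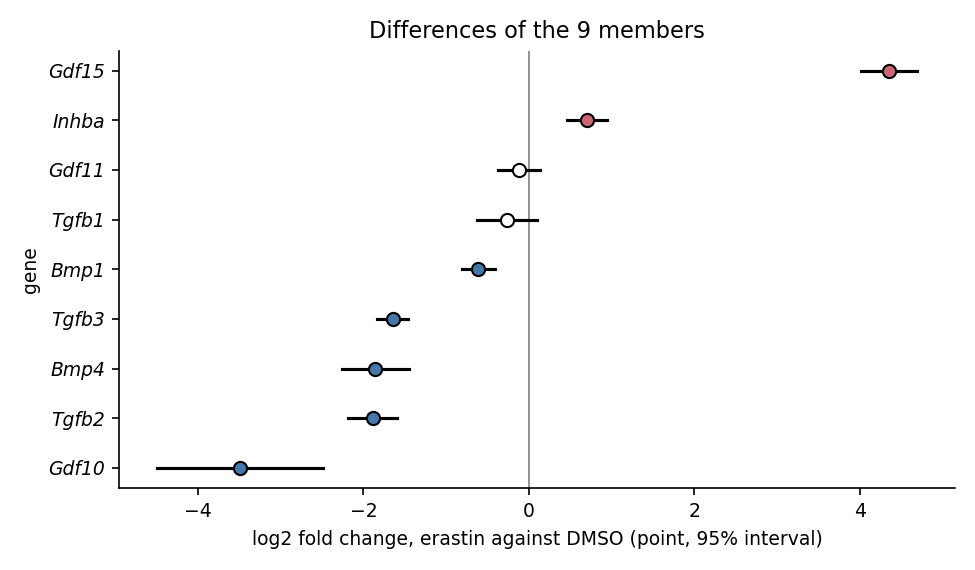
Log2 fold change of each of the 9 genes, erastin against DMSO, as points with the 95% interval of the edgeR fit as lines. Red and blue points passed as higher and lower and open points did not pass; the intervals of Gdf11 and Tgfb1 include 0, and that of Gdf10 is the widest.

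Levels of different genes were compared per kilobase of annotated exon, as RPKM. Annotated exon exceeded the longest transcript most for Bmp1 (8870 against 5365 bases) and Tgfb1 (5042 against 2573 bases). Their places in the order, and the Tgfb1 share given above, depend on this choice of length. In DMSO libraries Tgfb3 was highest at 103 ± 12.5 RPKM (SD, n = 3), followed by Inhba at 29.7 ± 4.30, Bmp1 at 27.2 ± 3.69 and Bmp4 at 26.5 ± 2.23 RPKM, whose libraries overlapped. Tgfb2 came next at 17.5 ± 0.888 RPKM, then Gdf11 at 7.22 ± 0.516, Tgfb1 at 6.73 ± 0.426 and Gdf15 at 5.17 ± 1.68 RPKM, again with overlap, and Gdf10 was lowest at 0.942 ± 0.121 RPKM. With erastin Gdf15 moved to the top at 105 ± 10.5 RPKM. Inhba at 48.3 ± 7.01, Tgfb3 at 32.7 ± 0.252 and Bmp1 at 17.8 ± 0.243 RPKM followed in that order without overlap. Bmp4 at 7.32 ± 2.77, Gdf11 at 6.64 ± 0.509, Tgfb1 at 5.62 ± 1.56 and Tgfb2 at 4.73 ± 1.23 RPKM did not differ beyond their spread between neighbours in the order, and Gdf10 stayed lowest at 0.0821 ± 0.0332 RPKM. The ratio of Inhba to Tgfb3 was 0.290 ± 0.0126 with DMSO and 1.48 ± 0.223 with erastin.

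Summed over 32 ligand genes of the superfamily (the 8 ligand members and 24 others), the level was 241 ± 19.8 RPKM with DMSO and 257 ± 10.6 RPKM with erastin (SD, n = 3 each), with overlapping libraries. Gdf15 took 2.14% ± 0.615 with DMSO and 40.6% ± 2.37 with erastin of that sum, and Tgfb3 42.4% ± 2.16 with DMSO and 12.7% ± 0.595 with erastin. Inhba took 12.3% ± 0.810 with DMSO and 18.7% ± 2.02 with erastin, and Bmp4 11.02% ± 0.569 with DMSO and 2.87% ± 1.19 with erastin. Inhbb, from outside the set, took 12.2% ± 1.38 with DMSO and 12.7% ± 2.13 with erastin. Without Gdf15 the sum was 236 ± 19.1 RPKM with DMSO and 153 ± 0.670 RPKM with erastin. These shares describe RNA scaled by the exon length of the GENCODE M21 annotation and not secreted protein, and a gene whose cells use only part of its annotated exons is understated.

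**Figure D3:**
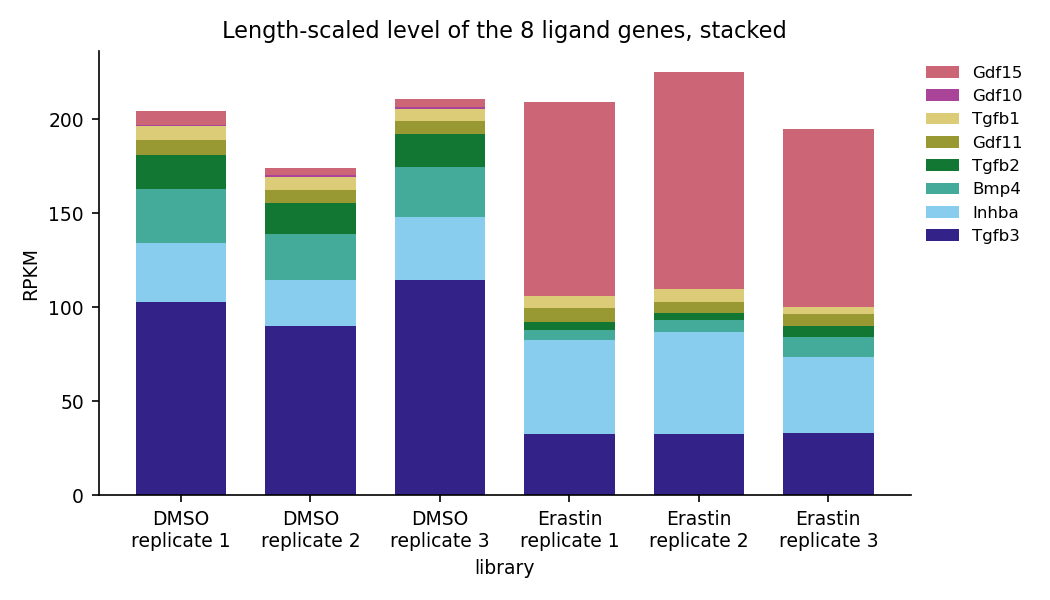
Stacked bars of RPKM for the 8 ligand genes among the members, 1 bar per library. The Gdf15 segment goes from 5.17 ± 1.68 RPKM in DMSO to 105 ± 10.5 RPKM in erastin libraries and the Tgfb3 segment from 103 ± 12.5 to 32.7 ± 0.252 RPKM.

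The other genes of the pathway were taken from 9 lists of 142 genes in all, of which 121 were tested and 71 (58.7%) passed, 29 higher and 42 lower, beside the 43.1% of all genes. The median log2 fold change was -0.17 for these genes and -0.0014 for all genes. Of 25 further ligands, 12 were tested and 3 (25%) passed, 1 higher and 2 lower (2 higher with an offset for GC content and length). Gdf6, a BMP-type ligand, fell from 8.04 ± 2.32 to 3.12 ± 0.171 CPM (SD, n = 3 each; -1.36 ± 0.29 (SE) as log2 fold change, with an edgeR adjusted p = 0.00144). Lefty1, a secreted inhibitor of Nodal signalling, fell from 7.83 ± 2.11 to 3.16 ± 1.46 CPM (edgeR adjusted p = 0.00636), and Bmp6 rose from 20.8 ± 5.40 to 34.1 ± 4.21 CPM (edgeR adjusted p = 0.00259). Bmp3, at 0.854 and 0.320 CPM, did not pass (edgeR adjusted p = 0.187). Gdf1 was not analysed here.

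Among 20 receptors and co-receptors 17 were tested, 3 passed as higher and 3 as lower (6 lower with an offset for GC content and length). The median log2 fold change was -0.08, and 35.3% passed, beside 43.1% of all genes tested. Ret, which encodes the signalling partner of the GDF15 receptor GFRAL and of the GDNF receptors, had 7.63, 8.04 and 8.10 CPM in DMSO replicates 1, 2 and 3 and 27.3, 28.02 and 24.6 CPM in erastin replicates 1, 2 and 3. All erastin libraries were higher (1.75 ± 0.15 (SE) as log2 fold change, with an edgeR adjusted p = 3.34e-07). Gfral itself, named after its values were seen, had 1 read in the 6 libraries together, under the floor of 3 counts. The TGF-beta co-receptor Tgfbr3 (betaglycan) fell from 94.7 ± 6.97 to 44.2 ± 4.28 CPM (-1.10 ± 0.10 (SE) as log2 fold change, with an edgeR adjusted p = 4.85e-07), and the type II receptor Tgfbr2 fell from 345 ± 31.8 to 215 ± 25.4 CPM (edgeR adjusted p = 3.18e-05). The BMP type I receptor Bmpr1b rose from 16.3 ± 2.96 to 38.4 ± 5.37 CPM (edgeR adjusted p = 1.46e-05). The type I TGF-beta receptor Tgfbr1, named after its values were seen, had 39.9 ± 2.54 CPM with DMSO and 39.7 ± 3.25 CPM with erastin, with an SE of its log2 fold change of 0.11.

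All 18 SMAD genes and intracellular regulators were tested, and 8 were higher and 3 lower, with a median log2 fold change of 0.14. Passing genes made up 61.1% of the list, beside 43.1% of all genes tested. Of the 6 signal-transducing SMAD genes introduced above, named after their values were seen, Smad1, of the BMP branch, rose from 31.98 ± 4.50 to 57.03 ± 7.68 CPM (0.83 ± 0.13 (SE) as log2 fold change, with an edgeR adjusted p = 8.72e-05), without overlap between the groups. Smad2, Smad3, Smad4, Smad5 and Smad9 missed the threshold, at log2 fold changes of 0.15, -0.15, -0.06, 0.13 and -0.13. Of the 4 genes with the smallest p-values, 3 rose. Tgif1, a SMAD co-repressor, rose from 52.6 ± 6.39 to 146 ± 12.5 CPM (1.47 ± 0.10 (SE) as log2 fold change, with an edgeR adjusted p = 4.46e-08). Ppm1a, a phosphatase for SMAD2 and SMAD3, rose from 94.4 ± 4.56 to 152 ± 8.70 CPM, and Smurf1, a ubiquitin ligase for SMADs and receptors, rose from 117 ± 5.13 to 178 ± 12.2 CPM (edgeR adjusted p = 8.57e-06 and 2.39e-05). Pmepa1, a TGF-beta induced inhibitor of SMAD2 and SMAD3, fell from 317 ± 18.3 to 204 ± 9.51 CPM (edgeR adjusted p = 6.71e-06).

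Of 15 secreted antagonists 12 were tested, 3 passed as higher and 5 as lower. Together 66.7% passed, beside 43.1% of all genes tested, and the list median of the log2 fold change was -0.41. Follistatin, encoded by Fst, binds and neutralises activin. Fst had 201, 187 and 202 CPM in DMSO replicates 1, 2 and 3 and 65.97, 65.6 and 76.4 CPM in erastin replicates 1, 2 and 3, with all erastin libraries lower (-1.50 ± 0.08 (SE) as log2 fold change, with an edgeR adjusted p = 7.07e-09). The ratio of Inhba to Fst per kilobase was 0.693 ± 0.0734 with DMSO and 3.24 ± 0.712 with erastin (SD, n = 3 each). Chrd, which encodes the BMP antagonist chordin, a substrate of BMP1, fell from 18.3 ± 0.819 to 6.38 ± 0.388 CPM (edgeR adjusted p = 5.55e-06), and the follistatin-like gene Fstl1 fell from 2659 ± 68.3 to 1451 ± 98.9 CPM (edgeR adjusted p = 1.32e-07). Grem1, which encodes the BMP antagonist gremlin, rose from 313 ± 14.9 to 697 ± 34.7 CPM (edgeR adjusted p = 1.34e-08). The BMP antagonist gene Nog, named after its values were seen, rose from 3.31 ± 0.241 to 10.3 ± 1.43 CPM (edgeR adjusted p = 6.47e-05). The BMP antagonists thus moved in both directions.

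Of 15 tested genes for latency, processing and activation of the precursors, 9 were lower and 0 higher in the edgeR fit. The 9 made up 60%, beside 43.1% of all genes tested (21.5% lower), and the list median of the log2 fold change was -0.27. At an unadjusted p-value under 0.05, 0 were higher, and DESeq2 also gave 0. Itgb8, a chain of an integrin that releases latent TGF-beta, fell from 10.9 ± 0.930 to 2.96 ± 1.001 CPM (-1.87 ± 0.27 (SE) as log2 fold change, with an edgeR adjusted p = 6.01e-05). The fibrillin genes Fbn2 and Fbn1, whose microfibrils store latent complexes, fell from 555 ± 28.4 to 243 ± 48.6 CPM and from 2500.2 ± 147 to 1832 ± 103 CPM (edgeR adjusted p = 6.57e-07 and 9.77e-05). Lrrc32, which encodes the TGF-beta docking protein GARP, fell from 629 ± 14.4 to 488 ± 31.4 CPM (edgeR adjusted p = 0.000594). The convertase gene Furin, named after its values were seen, fell by 0.27 on the log2 scale (edgeR adjusted p = 0.0301), which was 0.13 without erastin replicate 3, 0.0976 without DMSO replicate 2 and 0.0995 with total-count scaling (range over the 15 alternatives 0.0115 to 0.13).

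Relatives, enhancers and substrates of the BMP1 proteinase were mostly lower, like Bmp1. Of 13 tested, 8 were lower and 1 higher (69.2%, beside 43.1% of all genes tested), with a median log2 fold change of -0.48. Pcolce, the enhancer of procollagen C-proteinase activity, fell from 693 ± 67.1 to 352 ± 8.78 CPM (-0.98 ± 0.08 (SE) as log2 fold change, with an edgeR adjusted p = 1.62e-07). The procollagen genes Col1a1 and Col1a2 fell from 10976 ± 429 to 6607 ± 261 CPM and from 8102 ± 98.3 to 4535 ± 579 CPM, and Col7a1 from 91.1 ± 12.1 to 45.1 ± 1.57 CPM (edgeR adjusted p = 2.65e-07, 9.61e-07 and 1.68e-06). Col1a1 and Col1a2 are also among the fibroblast markers, of which 9 of 10 were lower, and whether a shift in the cells accounts for this list was not tested.

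Genes known to respond to TGF-beta and activin moved in both directions, with 6 of 19 higher, 9 lower and a median log2 fold change of -0.18. Of the 19, 78.9% passed, beside 43.1% of all genes tested. Ccn2, a matricellular protein gene, rose from 1033 ± 81.9 to 2331 ± 199.7 CPM (edgeR adjusted p = 3.66e-08), while the collagen genes of this list fell as given above. Of 12 genes known to respond to BMPs, 5 were lower and 1 higher, and their median log2 fold change was -0.59. The share that passed was 50%, beside 43.1% of all genes tested. Id3 and Id4, which encode inhibitors of DNA binding, fell from 228 ± 6.04 to 131 ± 9.32 CPM and from 17.8 ± 3.07 to 7.15 ± 1.25 CPM, and Atoh8 fell from 21.4 ± 4.21 to 9.77 ± 1.86 CPM (edgeR adjusted p = 1.01e-06, 9.14e-05 and 0.00023). Smad7, an inhibitory SMAD that answers both branches, rose from 96.5 ± 2.84 to 140.0 ± 13.7 CPM (edgeR adjusted p = 0.00016). Id1, a BMP-responsive gene named after its values were seen, had 48.4 ± 2.45 CPM with DMSO and 41.7 ± 1.45 CPM with erastin and did not pass (edgeR adjusted p = 0.0834).

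**Figure D4:**
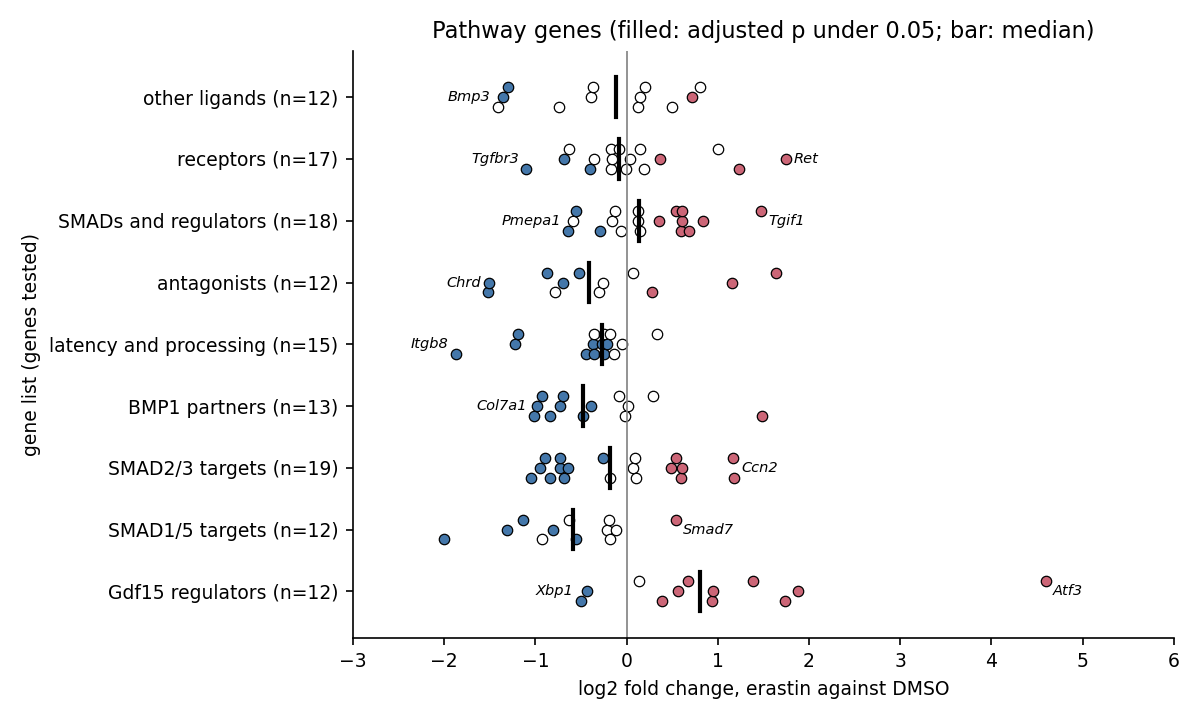
Log2 fold change of each tested gene of the 9 lists, erastin against DMSO, with genes that passed filled in red (higher) or blue (lower), the others open, the list median as a bar and the gene at an end of a list labelled where it is among the genes of lowest p-value or acts on Gdf15. The transcription factors known to act on Gdf15 lie mostly to the right, with Atf3 at 4.59, and the latency and processing genes that passed all lie to the left.

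Transcription factors known to act on Gdf15 were examined at the RNA level. Of 12, 9 were higher, 2 lower and 1, the p53 gene Trp53, did not pass (112 ± 5.03 CPM with DMSO and 124 ± 12.2 CPM with erastin; edgeR adjusted p = 0.219). The list median was 0.80, and 91.7% passed, beside 43.1% of all genes tested. Atf3 had 7.56, 4.93 and 1.71 CPM in DMSO replicates 1, 2 and 3 and 124, 122 and 98.9 CPM in erastin replicates 1, 2 and 3, without overlap (4.59 ± 0.27 (SE) as log2 fold change, with an edgeR adjusted p = 7.25e-09). Atf4, the effector of the integrated stress response, rose from 217 ± 16.95 to 414 ± 9.52 CPM (edgeR adjusted p = 1.66e-07). Ddit3, which encodes CHOP, rose from 73.1 ± 10.5 to 95.4 ± 15.4 CPM (edgeR adjusted p = 0.0199), and its adjusted p-value was 0.0987 without DMSO replicate 1 and 0.102 without erastin replicate 3 (range over the 15 alternatives 0.000375 to 0.102).

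The early response factors Egr1, Jun and Klf4 rose by 1.88, 1.74 and 1.39 on the log2 scale, and Nfe2l2, Cebpb and Sp1 by 0.95, 0.67 and 0.57, the largest edgeR adjusted p-value of the 6 being 0.000114. Xbp1 and Hif1a, factors of the unfolded protein response and of hypoxia, fell from 104 ± 1.88 to 73.6 ± 4.24 CPM and from 465 ± 38.3 to 345 ± 41.2 CPM (edgeR adjusted p = 0.000174 and 0.00128). The list was drawn up with earlier results of these libraries known, and RNA levels do not measure the activity of these proteins.

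The 6 genes whose log2 CPM, centred over the 6 libraries, differed least from that of Gdf15 were Fgf16, 1700012B09Rik, Slc7a11, Hmox1, Fgf21 and Crct1, with root mean square differences of 0.126 to 0.421 on the log2 scale (a prior count of 2 was added) and Pearson's r of 0.983 to 0.999 over 6 libraries. The 6 libraries fall into 2 treatment groups, so r is a description with no p-value. Fgf16 had 1, 0 and 0 reads in DMSO and 46, 49 and 48 in erastin libraries, and Fgf21 had 2, 4 and 3 against 104, 123 and 124. Both encode fibroblast growth factors and, like 1700012B09Rik with 0 reads in every DMSO library and 27, 32 and 29 in erastin libraries, are at or near the floor without erastin, where the prior count carries most of their log2 level. Slc7a11, which encodes the transport chain of the antiporter that erastin blocks, rose from 14.4 ± 2.53 to 191 ± 43.5 CPM, Hmox1, the gene of heme oxygenase, from 186 ± 7.20 to 2703 ± 552 CPM, and Crct1 from 2.59 ± 0.492 to 79.99 ± 24.3 CPM. Among these 6 genes, Slc7a11, Hmox1 and Crct1 had a lower CPM in erastin replicate 3 than in replicates 1 and 2, as had Gdf15.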

How the data were processed

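RNA of 6 libraries, 3 per group by their titles, was measured as read counts per gene. The authors deposited raw whole-number counts; the submitters' processing notes name HTSeq 0.9.1, SAMtools and the build mm10, and the aligner, annotation release and strand setting are not given in the sources used here. Columns were matched through the sample numbers in the descriptions, and 0 were left unused. Symbols, lengths and positions came from GENCODE M21 (GRCm38); 42462 of 43346 IDs matched. In R 4.3.3, edgeR 4.0.16 kept 14000 genes (filterByExpr, minimum count 10, minimum total 15), applied TMM factors and the quasi-likelihood test with treatment as the only term, and p-values were Benjamini-Hochberg adjusted over all genes tested, threshold 0.05. The code was tested on simulated data. Members and lists were chosen with earlier results of these data known. Named genes are the members, all tested factors acting on Gdf15 and the 6 genes most like Gdf15. In every list the 4 tested genes of lowest p-value are also named. Other pathway genes, such as Inha, Inhbb and Gfral, fell outside this rule and were named after their values were seen. Some genes of the lists are not reported here.

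Alternatives were RLE, upper-quartile and total-count scaling, no filter or 1 CPM in 3 libraries, DESeq2 1.42.0, a replicate block, an offset for GC content and length (mgcv 1.9.3) with and without the block, leaving out each library, and a threshold of 0.01. Libraries were amplified by PCR, and the labels' protocols name no molecular identifiers.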

Additional observations from a re-analysis of the deposited data

How the results depend on the processing

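Each of the 9 members kept its direction in all 15 alternative fits, and 7 members passed in each, also at an adjusted p-value under 0.01. Over these settings all genes that passed ran from 4305 to 6104, beside 6028 in the main fit. The number of genes tested in each setting is not given here. Since the contrast proposed the set, the member counts carry no test. For the alternative fits only the number of members that passed was recorded. Their log2 fold changes ran from 4.18 to 4.64 for Gdf15, 0.49 to 0.81 for Inhba, -3.84 to -3.22 for Gdf10, -2.11 to -1.74 for Tgfb2, -2.21 to -1.66 for Bmp4, -1.73 to -1.56 for Tgfb3 and -0.71 to -0.52 for Bmp1. Gdf11 ran from -0.19 to -0.05 and Tgfb1 from -0.38 to -0.04, the latter value without erastin replicate 3. The pathway genes that passed numbered 71 and ran from 64 to 75, and from 65 to 71 when a library was left out. All genes that passed ran from 4802 to 5809 when a library was left out. With the GC and length offset, 2 further ligands were higher in place of 1, with and without the replicate block, and 6 receptors were lower in place of 3 (5 with the block); the cause was not tested. Of 79 pathway and similar genes followed one by one, 70 kept direction and side of the threshold in every fit that gave them a value (14 for Bmp3, 15 for the others); Ddit3, Eng, Smad6, Zfyve9, Bmper, Itgav, Furin, Pcsk7 and Postn kept their direction and lost the call in at least 1. A fit with a replicate block called 5882 genes in place of 6028, 72 pathway genes and 7 members. Deviations from the group means of equally numbered libraries had correlations of 0.0401, 0.0038 and -0.0055 across genes. Their mean was 0.0128, and that of differently numbered libraries was -0.0063. Equal numbers thus shared little, but such values cannot exclude shared handling, which the labels do not state. With 0.14 to 0.23 CPM as the floor, Gdf10 in erastin libraries and the untested ligands are limited by depth.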

Other observations

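Erastin replicate 3 was at an end of its group for most members. In a group of 3 libraries all but the middle library are at an end for any gene, so this is common. Erastin replicate 2 was also at an end for Gdf15, Inhba, Tgfb1, Tgfb2, Bmp1 and Gdf11. No share over all genes is given. Replicate 3 was the lowest erastin library for Gdf15 (176 CPM), Inhba (259 CPM), Tgfb1 (19.3 CPM), Gdf10 (0.259 CPM) and Bmp1 (156 CPM). Replicate 3 was the highest erastin library for Tgfb2 (35.3 CPM), Bmp4 (23.5 CPM) and Tgfb3 (112 CPM). For Gdf15, Inhba, Tgfb2, Tgfb3 and Bmp4 its value was the nearest of the 3 to the DMSO level, and for Gdf10, Tgfb1 and Bmp1 the farthest from it. For Tgfb3 and Bmp1 the 3 erastin libraries differed little, with coefficients of variation of 0.771% and 1.36%. With 3 libraries a group, no test of an outlying library was made.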
